A study of Mus musculus with 10 samples.

Results

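Regions with peaks of HA-tagged SET that lie in gene deserts or in the gaps between genes were examined in mouse embryonic stem cells. Peaks of the 4 libraries made in SET knockout cells were merged where they shared at least 1 bp. A merged region was kept when both SETα libraries or both SETβ libraries had a peak in it, its midpoint lay outside every annotated gene, and no gene end lay within 5 kb. This gave 458 regions, 9.31% of the 4917 regions replicated with at least 1 isoform on 17 autosomes. All merged regions of these libraries, replicated or not, numbered 37661. Among the other replicated regions, 3185 had their midpoint within 1 kb of a gene end (called gene-end regions here), 1088 lay inside genes and 186 lay in between.

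The study expressed SETα or SETβ, the protein isoforms of SET, from a doxycycline-inducible HA-tagged transgene in KH2 embryonic stem cells and mapped them by chromatin immunoprecipitation and sequencing. In SETα addback and SETβ addback the cells lacked endogenous SET, and in SETα overexpression and SETβ overexpression they kept it. All 4 groups received 1 µg/ml doxycycline for 24 h, were grown on feeder cells that were removed before harvest, and were fixed with 2 mM DSG (a protein-to-protein crosslinker) for 45 min and 1% formaldehyde for 10 min. Each group had 2 libraries from a cell line of its own, so line and group cannot be told apart, and nothing in the labels says that the libraries of a group came from separate cultures. P-values therefore measure only the spread between these libraries. The 2 SET knockout samples that received no doxycycline were not used here, so no peaks of cells without induced tagged protein stand beside the values below, and whether the authors' peak calling used such a control is not given in the sources used here. The series holds no expression values for these samples, so the stem cell label was not tested on marker genes.

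SET is a histone chaperone of the nucleosome assembly protein family and an inhibitor of protein phosphatase 2A and of histone acetylation. Its isoforms differ only at the N terminus. Sites far from genes can be distal enhancers, promoters of transcripts missing from an annotation, or repeated sequence, and peak positions alone do not tell these apart.

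The libraries were unequal. Autosomal peaks numbered 21312 and 15052 in SETα addback, 2342 and 9260 in SETβ addback, 4514 and 7232 in SETα overexpression, and 1112 and 2556 in SETβ overexpression. In both SETα overexpression libraries most peaks, 73.9% and 66.1%, lay in a segment of chromosome 6 from 118 to 136 Mb, against 2.10% to 4.89% in the other 6 libraries. The segment was chosen as the longest stretch dense in peaks of both SETα overexpression libraries, so their larger share follows in part from the choice. Of the 458 regions, 21 lie in that segment, and the shares of regions with overexpression peaks are given with and without it. Read totals were not used here, so the depth behind a peak is unknown.

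Both SETα libraries had a peak in 411 of the 458 regions (89.7%), where 95.2% of all replicated regions did, and both SETβ libraries in 78 (17.0%), where 23.2% did. These sets shared 31 regions. A peak in both SETα libraries and in no SETβ library was found in 310 regions (67.7%), where 55.9% of all replicated regions had this pattern. The reverse was found in 26 (5.68%), where 1.71% had it. The 31 regions seen in all 4 addback libraries made up 6.77% of these regions, against 18.4% of all replicated regions and 23.3% of gene-end regions. These counts follow from the peaks that chose the regions and from the unequal lengths of the lists, and are a description without a test.

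The regions were narrow and moderately enriched. Their median width was 463 bp, from 203 to 4071 bp, against 644 bp for gene-end regions. Fold enrichment is the authors' ratio of signal to local background at a peak. Its median over the regions was 2.99 in SETα addback replicate 1, 3.25 in replicate 2, 3.02 in SETβ addback replicate 1 and 2.81 in replicate 2. Its maximum was 7.29, 8.13, 7.13 and 7.36 in the same order. Gene-end regions reached 31.5, 30.2, 29.9 and 28.7. The 186 regions between 1 and 5 kb from a gene end had a median width of 493 bp and maxima of 7.47, 7.98, 9.67 and 7.76.

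Within each library's own list, peaks were also ranked by −log10 p and placed on a scale from 0 to 100, where 100 is the strongest. In the order used above, the median place of the far regions was 56.2, 54.3, 45.7 and 70.0. For gene-end regions the medians were 72.4, 74.9, 69.8 and 83.1, and for regions between 1 and 5 kb from a gene end 66.8, 59.4, 67.4 and 83.4, so the far regions were lower in each of the 4 libraries, with a mean difference of −18.5 places from gene-end regions. This difference shrank to −6.13 places when peaks under a −log10 q of 1.3 were dropped and to −2.58 at a limit of 5. Of the far regions with a peak, 52.8% and 63.5% passed a q of 0.05 with SETα, and 39.8% and 38.3% passed it with SETβ. Over all replicated regions the shares were 64.6%, 75.95%, 63.6% and 53.3%, and over regions between 1 and 5 kb from a gene end 57.9%, 64.7%, 87.9% and 58.7%. In the authors' lists of peaks that passed the comparison of replicates by irreproducible discovery rate (IDR), 25 of the 458 regions appeared for SETα addback, where 10.4% of all replicated regions did, and 9 for SETβ addback, where 9.33% did.

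The distance from a region's midpoint to the nearest gene had a median of 16952 bp, with quartiles of 9444 and 40891 bp and a maximum of 477428 bp. To the nearest protein-coding gene the median was 44270.5 bp. Between 5 and 10 kb from a gene lay 132 regions, 122 lay between 10 and 20 kb, 107 between 20 and 50 kb, 54 between 50 and 100 kb and 43 beyond 100 kb. The nearest gene was protein-coding for 173 regions, a long non-coding RNA gene for 123 and a pseudogene for 106. Small RNA genes were nearest for fewer, with 22 regions nearest to a microRNA gene (20 of them to Mir101c, in a dense group on chromosome 9), 12 to a small nuclear RNA gene, 12 to a small nucleolar RNA gene and 4 to a transfer RNA gene. A strand could be assigned to the nearest gene of 245 regions, and for 112 of these the nearer gene end was its start and for 133 the other end.

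Regions close to the 5 kb limit were found on both sides of it. Just outside the limit, and so kept, were regions 5021 bp from Secisbp2l, with −log10 p of 6.15 and 4.20 in SETα addback, and 5032 bp from F3, the gene of coagulation factor III, with 8.63 and 3.90. Another lay 5094 bp from the microRNA gene Mir101c, with 3.20 and 14.9. Just under the limit, and so left out, were regions 4980 bp from Foxn4, with 5.44 and 5.70, 4856 bp from Gm41716, with 4.19 and 3.90, and 4851 bp from the transfer RNA gene n-TGgcc1, with 3.51 and 5.70.

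The regions seen in all 4 addback libraries were picked by having a peak in each, and their folds come from the same peaks, so the values are a description. Their median fold enrichment was 4.03 and 5.03 in the SETα libraries and 3.19 and 3.28 in the SETβ libraries. In 19 of the 31 both SETα folds lay above both SETβ folds, and in 1 the order was reversed. Folds of libraries that differ in depth and background are not on a shared scale, so this order describes the lists.

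The 6 of these 31 regions with the highest lowest place were as follows. On chromosome 6, 127269295 to 127270310, 11665 bp from the pseudogene Gm7308, −log10 p was 28.8 and 30.3 in SETα addback replicates 1 and 2, and 23.5 and 16.3 in those of SETβ addback. On chromosome 2, 167262899 to 167263570, 11085 bp from Ptgis (prostacyclin synthase), the values were 14.9, 21.9, 22.98 and 20.02 in the same order. The first of these regions lies in the chromosome 6 segment and the second does not. The library medians for far regions lay between 4.62 and 5.05. Both regions were picked for their high places, so values above these medians follow from the choice.

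On chromosome 4, 148722941 to 148723896, 21484 bp from the non-coding gene Gm32897, −log10 p was 18.9, 18.1, 22.4 and 13.8. This region had the highest fold of all 458 in 3 of the libraries, with 7.29, 8.13 and 7.13, and 5.40 in SETβ addback replicate 2. On chromosome 12, 81816756 to 81817460, 9760 bp from the non-coding gene Gm30706, −log10 p was 12.6, 10.9, 15.98 and 9.78. Neither of these regions, nor the one near Ptgis, had a peak in any overexpression library.

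The remaining pair lie side by side on chromosome 6 between the non-coding gene Gm52862 and Rny3, which encodes a small Y RNA. The region from 47762063 to 47766133 had −log10 p of 32.3 and 40.3 in the SETα libraries and 18.2 and 12.5 in the SETβ libraries. The region from 47767580 to 47768704 had 30.8, 29.5, 17.3 and 18.9. They belong to a group of 4 far regions within 11116 bp, of which 3 were found in all 4 addback libraries. Overexpression libraries had peaks in the group too, 0 and 2 with SETα and 1 and 3 with SETβ.

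Among addback libraries, other regions were found in both libraries of one isoform only. By the lowest place in their lists, the first with SETα alone lay on chromosome 6, 125420426 to 125421125, 10154 bp from Gm32673, with −log10 p of 23.1 and 20.3. It was followed by regions 23693 bp from Gm25127 (9.22 and 14.5), 5498 bp from Gm35702 (11.1 and 10.2) and 11738 bp from Tcf7l1 (9.22 and 12.9), which encodes a transcription factor of the Wnt pathway known to restrain the pluripotency network. SETβ addback had no peak in any of these 4 regions. In overexpression, the region near Gm32673 had a peak in SETα replicate 2 (5.85), the region near Gm35702 had one in SETα replicate 2 (3.70) and one in SETβ replicate 2 (4.09), and the other 2 had none. Folds in the 4 regions ran from 1.78, near Gm25127, to 7.06, near Gm32673.

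The regions with SETβ alone were ranked in the same way. On chromosome 10, 11491963 to 11492301, −log10 p was 7.43 in SETβ addback replicate 1 and 9.92 in replicate 2. Regions 12920 bp from Gm30228 (6.73 and 5.68), 32394 bp from the vomeronasal receptor pseudogene Vmn1r-ps138 (6.51 and 7.37) and 19901 bp from Gm3829 (5.85 and 6.32) followed. Their folds ran from 2.28 to 3.47, within the range of the 4 regions of SETα alone. None of these 4 regions had a SETα addback peak or an overexpression peak.

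**Figure D1:**
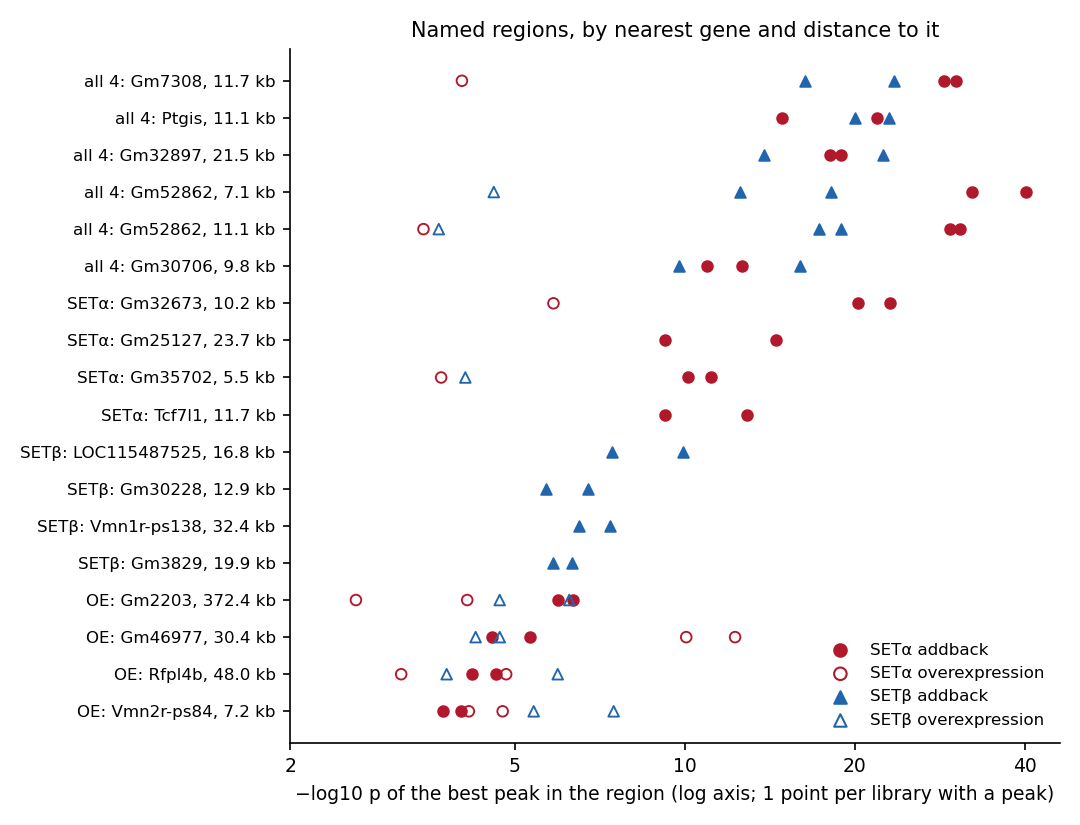
Each row is a named region, labelled by the rule that named it (all 4 addback libraries, SETα only, SETβ only, or most overexpression libraries, OE), its nearest gene and the distance to it. Points give the −log10 p of the best peak in a library on a log axis, filled for addback and open for overexpression, and a library without a peak has no point. The rows for all 4 addback libraries show only the strongest of those regions, by lowest place, and span 9.78 to 40.3 in addback. Other regions seen in all 4 addback libraries are not drawn and go down to 2.61 in SETβ addback replicate 2. The rows for SETβ only, also the strongest of their kind, stay under 10.

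Choice by one isoform did not require a peak of the other, whose peaks are counted here. All 4 libraries were merged before the choice, so those peaks could still shift a region's limits and midpoint. The shares are therefore not fully separate from the choice. Of the 411 regions chosen by SETα, SETβ addback had a peak in 46 (11.2%, Wilson 95% interval 8.50% to 14.6%) in replicate 1, where 25.1% of all SETα-chosen regions had one, and in 86 (20.9%, 17.3% to 25.1%) in replicate 2, where 35.5% had one. For gene-end regions the shares were 30.5% and 41.6%, above the intervals of the far regions in both libraries. Regions inside genes, at 16.4% (14.3% to 18.8%) and 25.4% (22.9% to 28.2%), were closer. So were those between 1 and 5 kb from a gene end, at 15.9% (11.3% to 21.9%) and 23.1% (17.6% to 29.7%). The intervals of both classes overlapped those of the far regions in both libraries. Intervals cover counting error only and treat regions as independent, although some lie close together in groups.

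In the other direction far regions were also below gene-end regions. Of the 78 regions chosen by SETβ, SETα addback had a peak in 46 (59.0%, 47.9% to 69.2%) in replicate 1, where 85.8% of all SETβ-chosen regions had one, and in 37 (47.4%, 36.7% to 58.4%) in replicate 2, where 86.3% had one. Gene-end regions reached 89.7% and 90.7%, regions inside genes 77.8% and 80.8%, and the 23 regions between 1 and 5 kb from a gene end 87.0% and 91.3%. Averaged over the 4 libraries, far minus gene-end regions came to −28.5 percentage points, from −19.3 in SETβ addback replicate 1 to −43.3 in SETα addback replicate 2. With peaks under a −log10 q of 5 dropped, which left 20 far regions, the mean was −15.7 points and the libraries ran from −41.3 to 6.30, so the order did not hold in every library.

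Strength differed between the classes, so the comparison was also made within 4 equal classes of strength. In the strongest class of SETα-chosen regions the SETβ libraries had a peak in 38.1% and 49.2% of 63 far regions and in 68.8% and 74.6% of 879 gene-end regions. In the weakest class they had one in 2.76% and 14.5% of 145 far regions and in 11.4% and 24.6% of 643 gene-end regions. For regions inside genes the shares were 51.8% and 52.8% in the strongest class and 5.66% and 14.8% in the weakest. In the second strongest class they were 11.5% and 27.0%, beside 11.4% and 20.3% of far regions. The shares were higher in the strongest class for far and gene-end regions alike, and far regions stayed below gene-end regions in the strongest and weakest classes. They were not below the regions between 1 and 5 kb from a gene end in the weakest class and the next of SETβ addback replicate 2, with 14.5% against 13.8% and 14.5% against 11.9%, or in the second strongest class, with 11.4% against 10.3% in replicate 1 and 20.3% against 15.4% in replicate 2.

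Among SETβ-chosen regions the strongest class held 0 far regions. In the weakest class SETα addback had a peak in 47.7% and 34.1% of 44 far regions and in 77.6% and 79.6% of 196 gene-end regions. In the second strongest class the shares were 93.3% and 80.0% of 15 far regions and 96.8% and 98.6% of 220 gene-end regions, so the gap was smaller there. Regions inside genes had 58.1% and 67.4% in the weakest class and 92.1% and 89.5% in the second strongest.

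**Figure D2:**
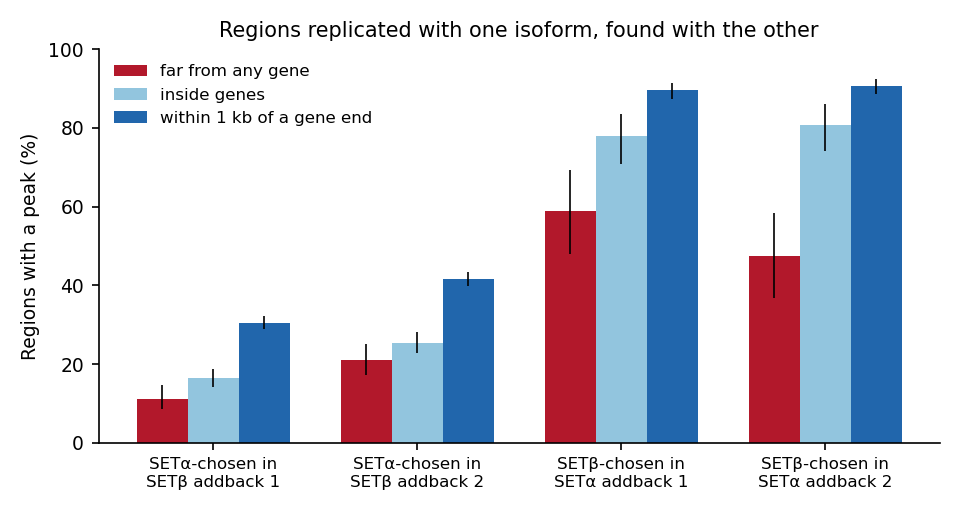
Bars give the percentage of regions replicated with one isoform that had a peak in a library of the other isoform, for regions far from any gene, inside genes and within 1 kb of a gene end, and lines give Wilson 95% intervals. Without regard to strength, the far regions are lowest in each of the 4 libraries, at 11.2% and 20.9% of SETα-chosen and 59.0% and 47.4% of SETβ-chosen regions.

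Overexpression libraries were not used to choose the regions, and their peaks met far regions rarely. SETα overexpression had a peak in 33 (7.21%) and 51 (11.1%) of the 458 regions, where 3.86% and 5.78% of all replicated regions had one. SETβ overexpression had a peak in 23 (5.02%) and 49 (10.7%), where 1.4% and 4.17% had one. The shares of the 2 isoforms overlapped, with means of 9.17% ± 2.78 for SETα and 7.86% ± 4.01 for SETβ (SD, n = 2), and the difference of 1.31 points lay within the spread between replicates (exact two-sided permutation test, p = 0.667, where 0.333 is the smallest possible).

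Against all other replicated regions, which had peaks in 3.52%, 5.23%, 1.03% and 3.50%, the far regions were higher in 4 of 4 overexpression libraries. The mean difference was 5.20 percentage points (exact two-sided sign-flip permutation test over the 4 libraries, p = 0.125, the smallest possible). The ratio was 2.05 and 2.13 with SETα and 4.87 and 3.06 with SETβ. Among the others, the 186 regions outside genes and between 1 and 5 kb from a gene end had SETα overexpression peaks in 10.2% and 12.4%, above the far regions, and SETβ overexpression peaks in 1.61% and 5.38%, below them. Without the chromosome 6 segment the SETα values of this class were 2.40% and 3.59%, also below the far regions. The size of this difference depended on the peaks admitted, and when peaks under a −log10 q of 1.3 were dropped from every list it was 0.738 points (exact sign-flip permutation test, p = 0.25). Where a single library was enough for an isoform, it was 2.40 points without SETα addback replicate 1, 2.34 without SETα addback replicate 2 and 1.51 without SETβ addback replicate 1.

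The chromosome 6 segment weighed on the SETα libraries. Of its 21 far regions, 13 (61.9%) and 16 (76.2%) had a SETα overexpression peak, below the 69.0% and 87.3% of its 197 other regions. With SETβ, 2 (9.52%) and 3 (14.3%) had one, against 4.06% and 14.7%. Far regions were thus lower than the others inside the segment in 3 of the 4 libraries. Without the segment, SETα overexpression peaks lay in 4.58% and 8.01% of 437 far regions and in 0.493% and 1.43% of the 4262 others. With SETβ the values were 4.81% and 10.5% against 0.892% and 2.98%. The difference between far and other regions was then 5.53 points (exact sign-flip permutation test, p = 0.125, the smallest possible), while that between SETα and SETβ turned to −1.37 points (exact permutation test, p = 0.667). Since the segment was chosen by SETα overexpression peaks, leaving it out lowers the SETα shares by design, and this turn is partly built in.

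**Figure D3:**
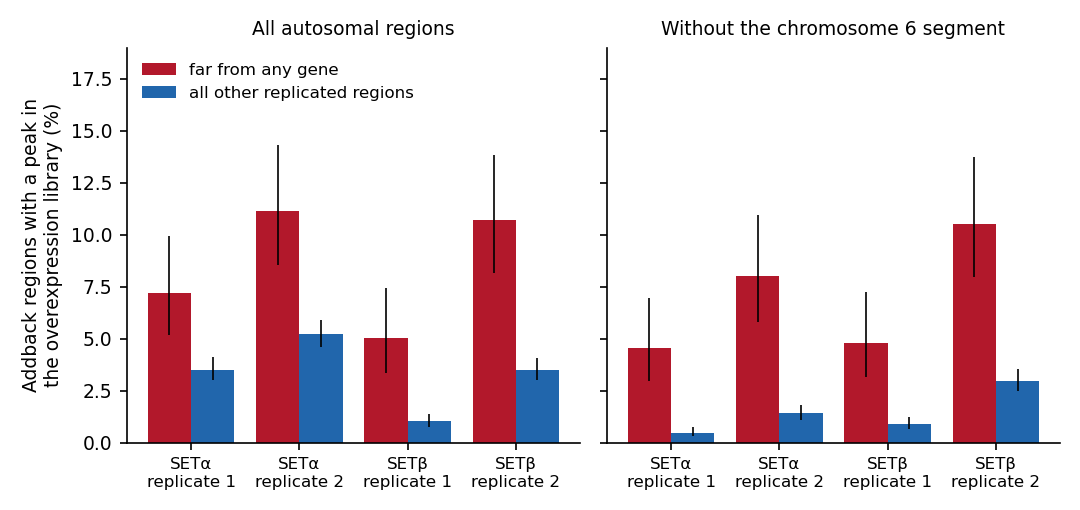
Bars give the percentage of addback regions with a peak in each overexpression library, for the 458 far regions and all other replicated regions, over all autosomes (left) and without chromosome 6 from 118 to 136 Mb (right). Lines give Wilson 95% intervals. The far regions are higher in each library, and without the segment the other regions fall to 0.493% and 1.43% in SETα overexpression.

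Across the 4 overexpression libraries, 380 regions had no peak, 30 had a peak in 1 library, 26 in 2, 14 in 3 and 8 in all 4. At least 1 overexpression peak was thus present in 78 regions (17.0%), where 8.48% of all replicated regions had one, and the 8 regions with all 4 made up 1.75%, where 0.549% did. Without the chromosome 6 segment, 60 of 437 far regions (13.7%) had at least 1 and 7 (1.60%) had all 4, where 4.68% and 0.426% of all replicated regions did. The share with any overexpression peak showed no steady order with distance, with 17.4% at 5 to 10 kb, 17.2% at 10 to 20 kb, 15.9% at 20 to 50 kb, 13.0% at 50 to 100 kb and 23.3% beyond 100 kb. Without the segment the shares were 12.9%, 10.7%, 14.3%, 13.2% and 23.3%. In the IDR lists of the overexpression groups, 0 of the 458 regions appeared for SETα, where 0.244% of replicated regions did, and 1 for SETβ, where 0.102% did.

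Of the 8 regions with a peak in all 4 overexpression libraries, the 4 with the strongest addback peaks all came from the SETα-chosen set. That set held 89.7% of all far regions. On chromosome 15, 45589742 to 45590445, which lies 372431 bp from the pseudogene Gm2203, −log10 p was 5.97 and 6.34 in SETα addback, 2.62 and 4.12 in SETα overexpression and 4.70 and 6.24 in SETβ overexpression. On chromosome 7, 86118969 to 86119393, near the vomeronasal receptor pseudogene Vmn2r-ps84, the values were 4.01, 3.74, 4.14, 4.76, 5.40 and 7.48. On chromosome 10, 38772295 to 38772859, 47964 bp from Rfpl4b, they were 4.62, 4.20, 4.83, 3.15, 3.79 and 5.96.

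The last of the 4, on chromosome 6 from 133987391 to 133988087, lies in the segment and had 5.31 and 4.55 in SETα addback, 10.1 and 12.3 in SETα overexpression and 4.26 and 4.70 in SETβ overexpression. In it and in the region near Vmn2r-ps84, both SETα overexpression values exceeded both SETα addback values. Like folds, −log10 p of libraries of unknown depth is not on a shared scale, so this order describes the lists. No SETβ addback library had a peak in any of the 4 regions, as in 67.7% of all far regions. The region on chromosome 15 was also among the 3 farthest from any gene, with regions 477428 bp from the small nuclear RNA gene Gm23452 and 378540 bp from Gm24304.

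Counted over all peaks of a library, and not over the 458 regions, overexpression lists had the larger share far from genes. A peak was counted as far by its summit. SETα addback had 18.1% and 13.5% of its autosomal peaks far from any gene (15.8% ± 3.27, SD, n = 2) and SETβ addback 11.7% and 17.8% (14.7% ± 4.35, SD, n = 2). SETα overexpression had 30.2% and 33.3% (31.8% ± 2.19, SD, n = 2) and SETβ overexpression 54.6% and 42.6% (48.6% ± 8.47, SD, n = 2). Ground that far from any gene made up 41.6% of the span from the first to the last gene of each autosome.

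Addback minus overexpression came to −24.9 percentage points, and every addback library lay below every overexpression library (exact two-sided permutation test within isoforms, p = 0.0556, the smallest possible). Between the isoforms in addback the difference was 1.09 points, less than the spread between replicates (exact two-sided permutation test, p = 0.667), and it turned to −1.22 without SETα addback replicate 1 and to −1.99 without SETβ addback replicate 1. In overexpression SETα minus SETβ was −16.8 points (exact two-sided permutation test, p = 0.333, the smallest possible). Without the chromosome 6 segment SETα overexpression had 54.2% and 51.9% and SETβ overexpression 55.7% and 43.7%, which overlap, and addback minus overexpression was −36.1 points (p = 0.0556 by the exact permutation test, the smallest possible).

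Strong addback peaks were rarely far from genes. Among the strongest 1000 peaks of each library the far share was 5.4% and 9.5% in SETα addback and 6.4% and 7.9% in SETβ addback. In overexpression it was 31.1% and 31.8% with SETα and 53.8% and 47.7% with SETβ. These 1000 are an unlike part of each list, from nearly all 1112 peaks in SETβ overexpression replicate 1 to few of 21312 in SETα addback replicate 1. As part of the rule, and so as a description, 6.58% of 6959 merged far regions were replicated within an isoform, where 13.1% of all merged regions and 22.9% of 13904 gene-end regions were.

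**Figure D4:**
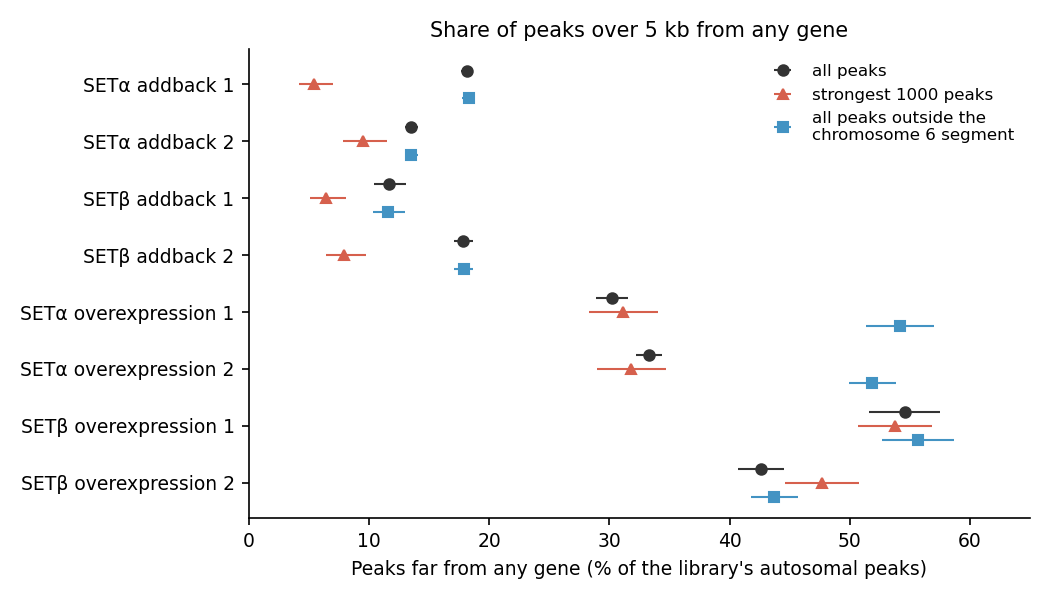
Points give the percentage of each library's autosomal peaks whose summit lies over 5 kb from any gene, for all peaks, the strongest 1000 and all peaks outside the chromosome 6 segment, with Wilson 95% intervals as lines. The 4 addback libraries lie between 11.7% and 18.1% over all peaks, below the 4 overexpression libraries at 30.2% to 54.6%.

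The regions were spread over all 17 autosomes with some in groups. Joining regions at most 20 kb apart gave 385 groups, of which 362 were single regions, 12 were pairs and 11 held 3 or more. Far regions made up 14.3% of the replicated regions on chromosome 6 (68 regions) and 14.8% on chromosome 9 (49), and 4.19% on chromosome 19 (7). Chromosomes 12 and 16, without a dense group, had 13.8% and 12.9%. On chromosomes 6 and 9, 2 dense groups together held 43 regions, and without them 45 and 29 far regions remained there.

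The larger dense group filled much of the interval between Hrh1, which encodes the histamine H1 receptor, and Atg7, which encodes an enzyme of autophagy. Its 23 regions span 127785 bp of chromosome 6, from 114502122 to 114629906. The group starts 18824 bp beyond Hrh1 and ends 13221 bp before Atg7. Inside it, SETα addback had 61 and 31 peaks and SETβ addback had 8 and 18.

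Overexpression libraries had 0 and 1 peaks there with SETα and 0 and 0 with SETβ. In the 100 kb before the group the addback libraries had 5, 3, 0 and 2 peaks, and in the 100 kb after it 1, 3, 1 and 0, so peaks were sparse on both sides. Median fold inside the group was low, with 2.70 and 3.12 for SETα and 2.26 and 2.44 for SETβ, and the highest fold was 4.79. Of the 23 regions, 3 were found in all 4 addback libraries. This group lies outside the segment from 118 to 136 Mb.

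**Figure D5:**
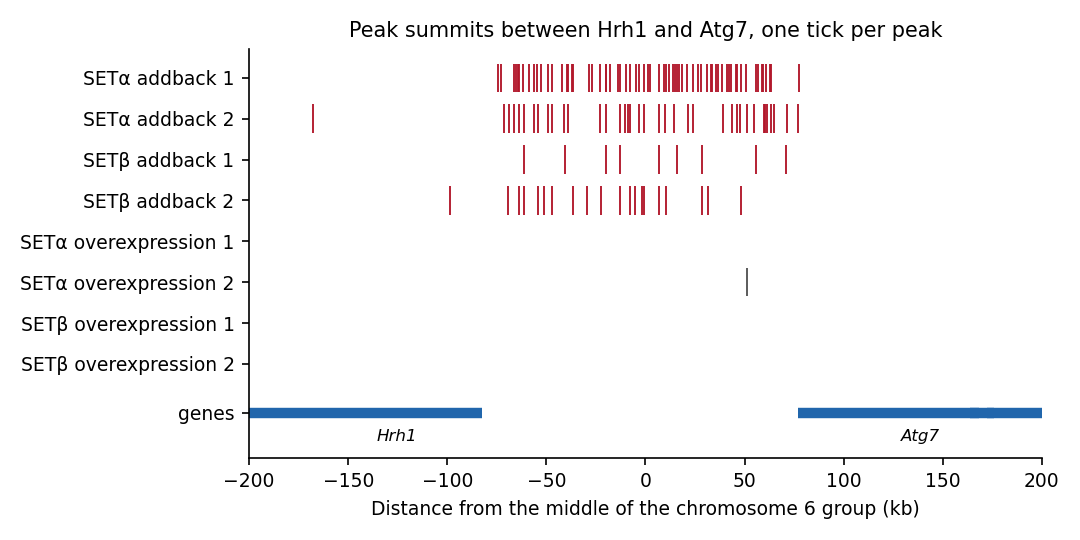
Ticks mark peak summits of each library (rows) by distance in kb from the middle of the dense group on chromosome 6, and bars at the bottom mark annotated genes. The 61 and 31 peaks of SETα addback and the 8 and 18 of SETβ addback fill the interval between Hrh1 and Atg7, where the overexpression libraries have 0 or 1.

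The smaller dense group held 20 regions in 34050 bp at the first listed positions of chromosome 9, from 3000004 to 3034053, before Mir101c. SETα addback had 23 and 40 peaks there and SETβ addback 0 and 10, and no overexpression library had one. Its folds were near 1, with medians of 1.21 and 1.58 for SETα and 1.22 for SETβ replicate 2, although its peaks in SETα addback replicate 2 had a median place of 96.9. A group of 3 regions on chromosome 2, from 98662177 to 98667364, had a similar profile, with median folds of 1.23, 1.67 and 1.27 and no peak in SETβ addback replicate 1. The second widest region, 4061 bp on chromosome 14 from 19415658 to 19419718, likewise had folds of 1.37 and 1.76 with SETα and 1.28 with SETβ replicate 2. Repeat content of these places was not measured, and its part in these peaks was not tested.

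Other groups were small. A group of 4 on chromosome 6, from 125418202 to 125425300 next to Gm32673, had 4 and 7 peaks with SETα addback, 0 and 0 with SETβ addback and 6 and 8 with SETα overexpression. It lies in the segment, as does a group of 3 near Klrb1c, which encodes a lectin-like receptor of natural killer cells, with 4 and 4 SETα overexpression peaks. Outside the segment, a group of 3 near Smgc on chromosome 15 had 3 and 3 peaks with SETα overexpression and 0 and 1 with SETβ overexpression.

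Some small groups were found mainly with SETβ. Near Vmn1r-ps138 on chromosome 16, SETβ addback had 3 and 3 peaks and SETα addback 1 and 0. Near Gm30228 on chromosome 10, SETβ addback had 4 and 3 peaks and SETα addback 2 and 1. In contrast, near Ptma, which encodes the histone-binding protein prothymosin α, a group of 3 had 3 and 5 SETα peaks and 1 and 3 SETβ peaks.

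Few regions lay within 100 kb of the pluripotency and housekeeping genes listed for this comparison. For pluripotency genes there were 4 (0.873%), where 0.956% of all replicated regions lay as near. For housekeeping genes there were 5 (1.09%), where 1.87% did. These shares are close to or below the background.

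The region within 100 kb of Nanog, a core pluripotency factor, was the strongest of these. It lies on chromosome 6 from 122810536 to 122812185, 96728 bp from Nanog and 8823 bp from Foxj2, and inside the segment. Its −log10 p in addback was 11.3 and 15.3 with SETα and 9.39 and 8.001 with SETβ. In overexpression it was 5.27 and 11.3 with SETα and 4.72 in SETβ replicate 2, with no peak in SETβ replicate 1. It was seen in 7 of 8 libraries.

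The regions near Klf4, Nr5a2 and Lin28a, which encode further pluripotency regulators, were found with SETα addback alone. That 46498 bp from Klf4 had −log10 p of 4.77 and 4.93, that 32466 bp from Nr5a2 had 7.63 and 5.70, and that 92299 bp from Lin28a had 6.15 and 9.09. The 5 regions near the housekeeping genes Rab7, Rpl13a, Eef1a1, Ywhaz and Tbp had a peak in both SETα addback libraries and in no other library, with −log10 p between 3.51 and 6.50. Peaks in both SETα and no SETβ addback library were also the pattern of 67.7% of far regions and 55.9% of all replicated regions.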

How the data were processed

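Per the submitters' processing notes, Bowtie2, MACS2 and deepTools were used with builds GRCm38 and mm10, and the authors deposited 1 peak list per library. Versions, the control used for calling and any excluded regions are not given in the sources used here. In the deposited lists each peak has a score, a fold enrichment as a linear ratio over local background, and −log10 p and −log10 q values. The deposited IDR lists hold, for peaks compared between both replicates, a scaled IDR score and the smaller −log10 p. In these lists 8 columns of per-replicate values that name no library were not used.

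Peaks on autosomes were merged, set against 47042 RefSeq genes of GRCm38.p6 and ranked within their own list by −log10 p and then fold (Python 3.11.15, pandas 2.3.3, scipy 1.17.1). Overlap meant at least 1 bp. Chromosomes 8 and 11 were not analysed here. Libraries were compared by exact permutation tests and shares have Wilson intervals. The rule for named regions took the 6 strongest seen in all 4 addback libraries, 4 per isoform alone, the 4 in most overexpression libraries, the 3 farthest, the 3 widest, 3 on each side of the limit and those near listed genes. The regions and gene lists were chosen with earlier results of these data known. Sequence, GC content, repeats and motifs of the regions were planned but not run, since no genome sequence was used here. The result of a further gene list, of developmental regulators, is not reported here. The code was tested on simulated lists.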

Additional observations from a re-analysis of the deposited data

How the results depend on the processing

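The number of far regions depended on the rule. It was 766 with protein-coding genes only, 160 with peaks of −log10 q of at least 1.3, 20 at 5, and 244 when peaks had to share at least 50% of both. Leaving out 1 addback library, so that 1 peak of that isoform was enough, gave 631 to 3893. The lower addback share of far peaks kept its direction under all 18 alternatives, from −27.9 to −21.9 without 1 library, and was −44.5 at −log10 q of at least 5. The mean difference in the share with an overexpression peak was positive under all 19, with 0.738 (exact sign-flip permutation p = 0.25) and 1.06 (p = 1) at the q limits of 1.3 and 5 and 1.51 to 5.70 without 1 library. The isoform difference in far share in addback ran from −1.99 to 4.17 without 1 library, being −1.22 without SETα addback replicate 1 and −1.99 without SETβ addback replicate 1. The isoform difference in regions with an overexpression peak ran from −1.53 to 4.15 without 1 library, being −0.218 without SETα addback replicate 2, −0.655 without SETα overexpression replicate 2 and −1.53 without SETβ overexpression replicate 1. It was −0.641 without chromosome 6, −2.46 with 50% overlap and −1.37 without the segment, an alternative added after the data were seen. Far minus gene-end regions found with the other isoform was −15.7 at −log10 q of at least 5 (−41.3 to 6.30 over libraries), and −37.7 to −18.5 without 1 library. The difference in place was −6.13 at −log10 q of at least 1.3 and −2.58 at 5, and −20.3 to −17.7 without 1 library. The causes were not tested.

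No label says that library numbers pair the samples. In addback, the replicate differences of log2 fold had a Pearson r of 0.0637 between isoforms across 906 regions in all 4 addback libraries, which are not independent, and overexpression libraries were not checked for pairing. With a replicate block the values were 1.09 (exact permutation p = 1), −24.9 (p = 0.125), 1.31 (p = 0.5) and 5.20 points (p = 0.5) for addback isoforms, backgrounds, overexpression isoforms and far against other regions, where the smallest possible p was 0.5, 0.125, 0.5 and 0.5.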
